A study of Mus musculus with 2 samples.

Results

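The Mir17-92 and Mir106b-25 clusters are 2 groups of microRNA (miRNA) genes, each transcribed as a single long RNA that is cut into several hairpins. Their 9 hairpin genes, Mir17, Mir18, Mir19a, Mir20a, Mir19b-1 and Mir92-1 in the first cluster and Mir106b, Mir93 and Mir25 in the second, were chosen by symbol. The choice used no cutoff on a measured value but was made with earlier results of these data known. All 9 were found among the 1973 annotated miRNA genes counted in each library. The libraries hold small RNA from hearts of healthy B6NCrl mouse embryos, taken at embryonic day 15.5 with both sexes pooled and no treatment named in the labels. For replicate 1 the hearts of 78 embryos were pooled and for replicate 2 those of 62, so the spread between them is one of pools. There is 1 group of 2 libraries and no condition to compare.

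A miRNA pairs with target mRNAs mainly through its seed, bases 2 to 8 from its 5′ end, and lowers the output of those mRNAs. The Mir17-92 cluster is activated by the transcription factor MYC and is known for promoting cell division and cell survival, and mice that lack it die around birth with defects of the heart septum and small lungs. Raised levels of the cluster promote the division of mouse heart muscle cells. The Mir106b-25 cluster lies in the gene Mcm7, which encodes a subunit of the helicase that opens DNA for replication. Both clusters and a paralogous cluster on chromosome X descend from a common ancestor and share seeds.

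The mature sequence that each hairpin is best known for shows how the 9 genes fall into 4 seed families. The families with seeds AAAGUGC and AUUGCAC run across both clusters, whereas members with seeds AAGGUGC and GUGCAAA lie only in the first cluster. The mature sequences are printed 5′ to 3′ from RefSeq (GRCm38.p6), with the seed in capitals.
miR-17-5p (Mir17): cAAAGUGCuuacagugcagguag
miR-20a-5p (Mir20a): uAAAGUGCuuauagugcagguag
miR-93-5p (Mir93): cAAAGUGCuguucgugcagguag
miR-106b-5p (Mir106b): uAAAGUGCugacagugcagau
miR-18a-5p (Mir18): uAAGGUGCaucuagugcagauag
miR-19a-3p (Mir19a): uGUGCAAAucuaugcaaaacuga
miR-19b-3p (Mir19b-1): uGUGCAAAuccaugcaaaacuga
miR-92a-3p (Mir92-1): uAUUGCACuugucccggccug
miR-25-3p (Mir25): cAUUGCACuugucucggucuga

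The seed AAAGUGC is carried by 4 of the 9 members, Mir17 and Mir20a of the first cluster and Mir93 and Mir106b of the second. miRNAs with this seed lower cell cycle inhibitors such as Cdkn1a. It is the seed of 7 of the 1679 mature miRNAs in the RefSeq table (0.417%). Positions are counted from 1 at the 5′ end, with the first named miRNA's base first. miR-17-5p differs from miR-20a-5p by C1U and C12U and from miR-93-5p by U10G, A11U, C12U and A13C, all outside the seed. miR-18a-5p is close to miR-17-5p but has its own seed AAGGUGC, through the substitution A4G. The Mir19 pair (seed GUGCAAA) differs by U11C alone. miR-92a-3p and miR-25-3p share the seed AUUGCAC and differ over 21 bases by U1C, C14U and C18U. The deposited counts are per hairpin, so the printed arm and the opposite arm were not told apart.

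The 6 hairpins of the Mir17-92 cluster span 836 bases on chromosome 14 (GRCm38, positions 115043671 to 115044506, plus strand), separated by 35 to 96 bases. All lie within exon 2 of the long noncoding RNA gene Mir17hg. The 3 hairpins of the Mir106b-25 cluster span 498 bases on chromosome 5 (positions 138165321 to 138165818, minus strand), with gaps of 126 and 118 bases. They lie in intron 13 of the Mcm7 transcript Mcm7-201. Mir93 and Mir25 also fall within exon 1 of the short transcript Mcm7-202, whereas Mir106b lies in no annotated exon of Mcm7.

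Reads that matched several places of the genome are in no gene count, at 33.0% of reads for replicate 1 and 30.1% for replicate 2. This bears on Mir19b-1 and Mir92-1, whose printed mature sequence is also found whole in a hairpin of the chromosome X cluster. For the other 7 members no other hairpin among 1005 in the RefSeq table held the mature sequence, and their longest stretch shared with another hairpin was 12 to 17 bases. The hairpins of the shared pairs are printed with the shared stretch in capitals.
Mir19b-1 (chromosome 14): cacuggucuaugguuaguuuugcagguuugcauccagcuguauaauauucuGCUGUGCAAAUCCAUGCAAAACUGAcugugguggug
Mir19b-2 (chromosome X): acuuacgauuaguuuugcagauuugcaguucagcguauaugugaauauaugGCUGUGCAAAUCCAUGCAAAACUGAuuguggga
Mir92-1 (chromosome 14): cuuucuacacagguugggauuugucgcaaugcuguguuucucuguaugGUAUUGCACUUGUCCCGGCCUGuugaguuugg
Mir92-2 (chromosome X): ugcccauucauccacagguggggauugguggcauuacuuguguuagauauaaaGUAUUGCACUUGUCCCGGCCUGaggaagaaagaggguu
The stretch is 25 bases in the Mir19b pair and 22 in the Mir92 pair, and in both it ends at the last base of the mature sequence. A read of the mature miRNA that does not run past this end matches both hairpins. The counts of Mir19b-1 and Mir92-1 leave such reads out, so their levels are uncertain and may be too low. Copies outside annotated hairpins and transcripts were not searched.

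Replicate 1 held 3439539 counts on the strand of a miRNA gene and replicate 2 held 5833156. Levels are given per 1000000 of these counts (CPM), and ± is the SD over both libraries (n = 2). Intervals are exact binomial 95% intervals that cover only the counting error of independent reads, and not the spread between pools. Amplified reads are not independent molecules, so counting error, as used below, may be understated. Heart muscle miRNAs hosted by myosin genes were present, with Mir208a at 5972 CPM in replicate 1 against 5801 CPM in replicate 2. Mir208b had 53878 and 37837 CPM in replicates 1 and 2 and Mir499 had 2492 and 1829 CPM. Mir490, of the same list, had 118 and 126 CPM. The heart muscle list as a whole had 62461 and 45595 CPM. Of its 7 matched genes, Mir1a-1, Mir133a-1 and Mir133a-2 had 1 to 7 counts per library. Reads that match several places are in no count, so these low counts do not show that these miRNAs were scarce. How many such reads these genes lost was not examined. Replicate 2 held more of the epithelium, neural, liver and leukocyte lists, and replicate 1 more of the heart muscle list, endothelial Mir126a and erythroid Mir451a. The epithelium list had 1821 CPM in replicate 1 against 6297 CPM in replicate 2. The neural list had 158 and 573 CPM in replicates 1 and 2, nearly all of it from Mir137, Mir128-1 and Mir128-2. Its Mir124a genes and Mir9-2 had 0 counts in both libraries, and Mir9-3 had 1 and 9 counts in replicates 1 and 2. Liver Mir122 had 87.2 and 309 CPM, and the leukocyte list had 480 and 702 CPM. Mir451a had 1975 and 564 CPM, whereas the other erythroid genes did not share its direction in CPM, with Mir144 at 401 and 422 CPM and Mir486 at 80.8 and 110 CPM, for an erythroid sum of 2457 and 1095 CPM. Mir126a had 79217 and 67775 CPM, and the smooth muscle list had 83564 and 89291 CPM. In a whole tissue, fewer cells of a type and less of an RNA per cell cannot be told apart.

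The 9 members together made up 3.25% of the counts in replicate 1 (3.23% to 3.27%) and 3.53% in replicate 2 (3.51% to 3.54%), or 33900 ± 1936 CPM. All 9 had at least 10 counts in both libraries, the limit used for detection, which 327 of 1973 genes reached. Their median level was 1992 CPM, against 146 CPM over all detected genes, and 6 of the 9 were among the 100 genes with the highest mean. The Mir17-92 cluster had 23507 CPM in replicate 1 against 25030 CPM in replicate 2 (24268 ± 1077), and the Mir106b-25 cluster had 9025 and 10239 CPM (9632 ± 858). The ratio of counts of the Mir17-92 cluster to the Mir106b-25 cluster was 2.60 in replicate 1 (2.57 to 2.64) and 2.44 in replicate 2 (2.42 to 2.47), a log2 ratio of 1.34 ± 0.065. The ratio was thus close in both pools, although its intervals did not overlap. Such ratios between different miRNAs compare counts, which need not stand to each other as amounts in the tissue do.

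**Figure D1:**
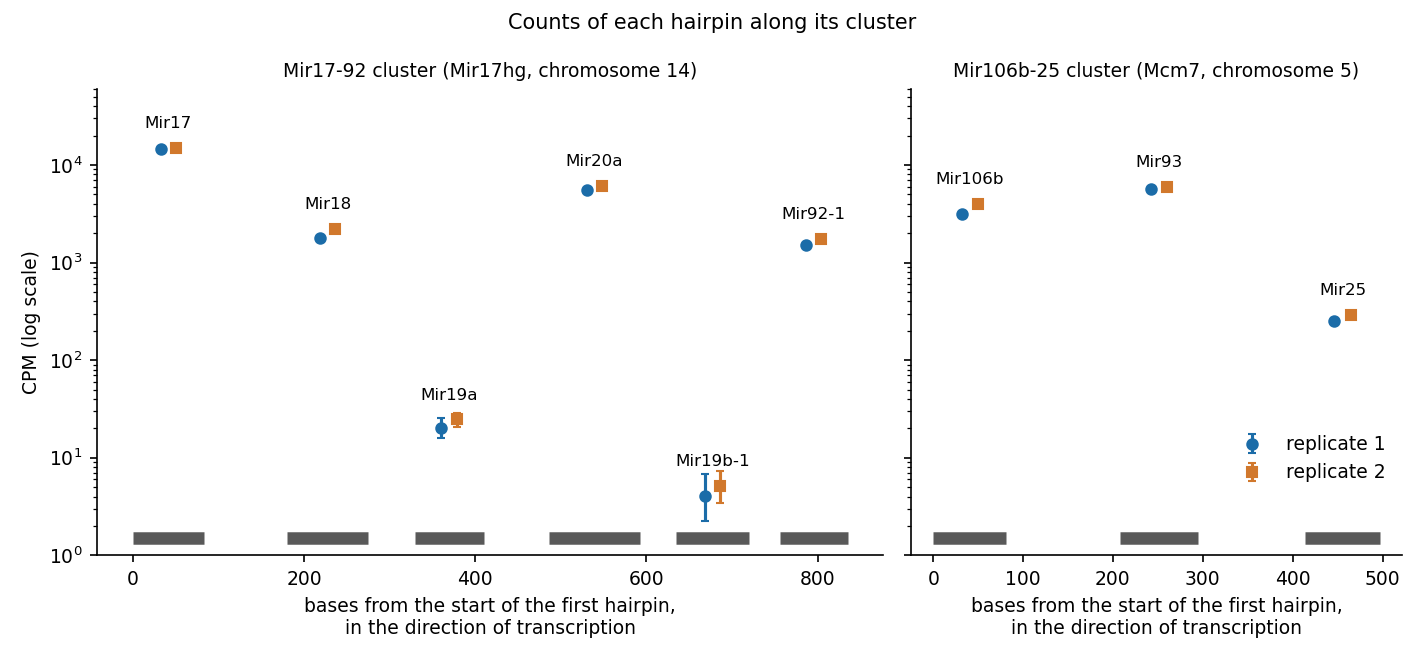
Level of each member in CPM (log scale) at its place along its cluster, in bases from the start of the first hairpin. Circles are replicate 1, squares replicate 2, bars exact binomial 95% intervals and grey blocks the hairpins; neighbouring hairpins differ widely, from 14688 CPM for Mir17 to 4.07 CPM for Mir19b-1 in replicate 1.

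Mir17 (ENSMUSG00000065508.1, positions 115043671 to 115043754) was the highest member. It had 50521 counts, or 14688 CPM (14561 to 14816), in replicate 1 and 87448 counts, or 14992 CPM (14893 to 15090), in replicate 2. By these counts, which leave out reads that match several places, it ranked 18th of all miRNA genes in both libraries. Mir17 gave 45.2% of the counts of the 9 members in replicate 1 and 42.5% in replicate 2.

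Mir20a (ENSMUSG00000065442.1, positions 115044157 to 115044263), the other carrier of the AAAGUGC seed in this cluster, had 18969 counts (5515 CPM) in replicate 1 and 35281 counts (6048 CPM) in replicate 2. Its mean was 5782 ± 377 CPM. Mir17 exceeded Mir20a by a ratio of 2.66 in replicate 1 (2.62 to 2.71) and 2.48 in replicate 2 (2.45 to 2.51), although the Mir20a hairpin starts only 486 bases after that of Mir17 in the same exon. Together these hairpins gave 85.9% of the cluster's counts in replicate 1 and 84.1% in replicate 2.

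Mir18 (ENSMUSG00000065403.1, positions 115043851 to 115043946) had 6092 counts (1771 CPM) in replicate 1 and 12907 counts (2213 CPM) in replicate 2. Mir92-1 (ENSMUSG00000076062.1, positions 115044427 to 115044506) had 5186 counts (1508 CPM) and 10196 counts (1748 CPM) in replicates 1 and 2. miR-92a is best known in the vasculature, where it restrains the growth of new vessels. Mir18 exceeded Mir92-1 in both libraries, by a ratio of 1.17 in replicate 1 (1.13 to 1.22) and 1.27 in replicate 2 (1.23 to 1.30). The count of Mir92-1 leaves out reads that also match Mir92-2, so the order of these neighbours in level is uncertain.

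The Mir19 genes had far fewer counts. Mir19a (ENSMUSG00000065416.1, positions 115044000 to 115044081) had 70 counts, or 20.4 CPM (15.9 to 25.7), in replicate 1 and 144 counts, or 24.7 CPM (20.8 to 29.1), in replicate 2. Mir19b-1 (ENSMUSG00000076256.1, positions 115044305 to 115044391) had 14 counts, or 4.07 CPM (2.23 to 6.83), in replicate 1 and 30 counts, or 5.14 CPM (3.47 to 7.34), in replicate 2. Between the hairpins of Mir18 and Mir20a on the same RNA, Mir19a thus lay below Mir17 by a ratio of 722 in replicate 1 (571 to 926) and 607 in replicate 2 (516 to 720). The mature sequence of Mir19a was found whole in no other hairpin, and its longest stretch shared with another hairpin, that of Mir19b-2, was 13 bases. This search covered exact matches only, and miR-19a-3p differs from miR-19b-3p by U11C alone. Whether Mir19a lost reads that match several places was not tested. For Mir19b-1, whose reads can match Mir19b-2, the ratio of Mir19a to Mir19b-1 was 5.00 (2.79 to 9.61) in replicate 1 and 4.80 (3.22 to 7.37) in replicate 2.

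In the Mir106b-25 cluster, Mir93 (ENSMUSG00000065527.1, positions 138165523 to 138165610) led with 19479 counts (5663 CPM) in replicate 1 and 34622 counts (5935 CPM) in replicate 2. Mir106b (ENSMUSG00000065514.1, positions 138165737 to 138165818), the first hairpin in the direction of transcription, had 10688 counts (3107 CPM) and 23408 counts (4013 CPM) in replicates 1 and 2. Mir25 (ENSMUSG00000065394.1, positions 138165321 to 138165404), the last, had 875 counts (254 CPM) and 1694 counts (290 CPM). Mir93 exceeded Mir106b by a ratio of 1.82 (1.78 to 1.87) in replicate 1 and 1.48 (1.45 to 1.50) in replicate 2, so the pools differed in this ratio by more than counting error. Mir93 exceeded Mir25 by a ratio of 22.3 (20.8 to 23.8) in replicate 1 and 20.4 (19.5 to 21.5) in replicate 2, where the intervals overlap.

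The order of the members by mean level was Mir17, Mir93, Mir20a, Mir106b, Mir18, Mir92-1, Mir25, Mir19a and Mir19b-1, and it was the same when levels were divided by the length of the hairpin. Mir93 (5799 ± 192 CPM) and Mir20a (5782 ± 377 CPM) did not differ beyond their spread. The ratio of Mir20a to Mir93 was 0.974 (0.954 to 0.994) in replicate 1 and 1.02 (1.00 to 1.03) in replicate 2, on either side of equality. The other neighbours in this order had ranges over the libraries that did not overlap. The places of Mir92-1 and Mir19b-1 are still uncertain, since their counts leave out reads that also match the chromosome X hairpins. The level did not follow the place in the cluster, since the highest member was the first hairpin of the Mir17-92 cluster and the second of the Mir106b-25 cluster.

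**Figure D2:**
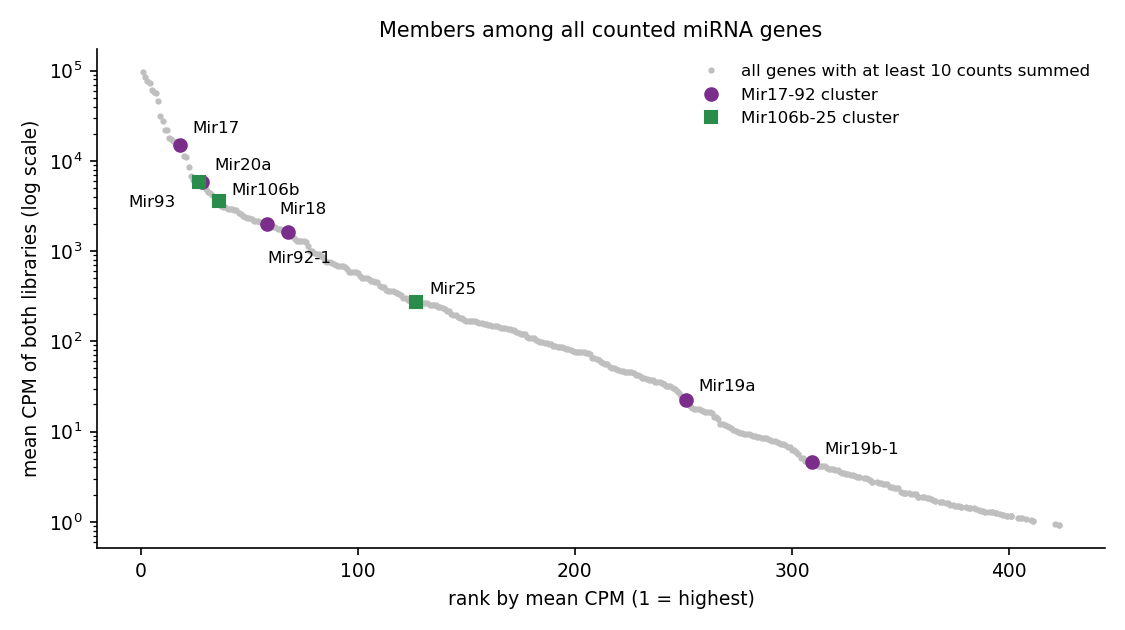
Mean CPM of both libraries (log scale) against rank among all miRNA genes with at least 10 counts summed (grey), with the Mir17-92 (circles) and Mir106b-25 (squares) members named. The members run from rank 18 for Mir17 to rank 309 for Mir19b-1.

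The genes whose levels lay nearest to Mir17 in both libraries, by distance in log2(CPM + 0.5) over the 2 libraries among genes averaging 1000 or more counts, were Mir99b (distance 0.13), Mir21a (0.17) and Mirlet7d (0.24). Mir99b had 14499 CPM in replicate 1 against 16396 CPM in replicate 2. Nearest to Mir93 among these non-members were Mir208a (0.08), Mir98 (0.09) and Mir487b (0.10), with Mir208a the miRNA of a heart myosin gene.

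Summed by the seed of the printed arm, the members' counts, which leave out reads that match several places, were concentrated in the AAAGUGC family. Counts are per hairpin, so such sums can also hold reads of the opposite arm, which need not carry the seed. It had 29069 CPM in replicate 1 against 31447 CPM in replicate 2 over 6 genes, and the 4 members made up 99.7% of this sum in replicate 1 (99.6% to 99.7%) and 98.5% in replicate 2 (98.5% to 98.6%). Mir17 alone gave 50.5% and 47.7% in replicates 1 and 2, Mir93 19.5% and 18.9%, and Mir20a 19.0% and 19.2%. Mir106b gave 10.7% and 12.8%. Within this family, Mir17 and Mir20a together exceeded Mir106b and Mir93 together by a ratio of 2.30 (2.27 to 2.33) in replicate 1 and 2.11 (2.09 to 2.14) in replicate 2. Mir6383, whose mature miRNA has the same seed and which was looked up after the seeds were listed, had 0 counts in both libraries.

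The AAGGUGC family was nearly all Mir18, at 99.7% of 6110 counts in replicate 1 and 99.4% of 12981 counts in replicate 2, with Mir18b as the other gene. The GUGCAAA family had 92 counts (26.8 CPM) in replicate 1 and 182 counts (31.2 CPM) in replicate 2 over its 3 genes, of which Mir19a gave 76.1% (66.1% to 84.4%) and 79.1% (72.5% to 84.8%). The AUUGCAC family had 1976 CPM in replicate 1 against 2537 CPM in replicate 2 over 7 genes. Here Mir92-1 gave 76.3% (75.3% to 77.3%) in replicate 1 and 68.9% (68.2% to 69.7%) in replicate 2, and Mir25 gave 12.9% and 11.4%. The 5 other genes of this family, Mir92b, Mir32, Mir363, Mir92-2 and Mir367, ranged from 0 to 90.1 CPM in replicate 1 and from 0 to 157 CPM in replicate 2. Mir367 had 0 counts in both libraries, for which the upper ends of the exact intervals were 1.07 CPM in replicate 1 and 0.632 CPM in replicate 2. The ratio of Mir92-1 to Mir25, a pair with the same seed in different clusters, was 5.93 (5.52 to 6.37) in replicate 1 and 6.02 (5.72 to 6.34) in replicate 2, so the pools did not differ in it beyond counting error. Reads that match both Mir19b or both Mir92 hairpins are in no count. Sums of the GUGCAAA and AUUGCAC families may thus be too low. Shares within these families and the ratio of Mir92-1 to Mir25 are uncertain for the same reason. They can also hold reads of the opposite arm, and how many of the counts carry the seed was not examined.

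**Figure D3:**
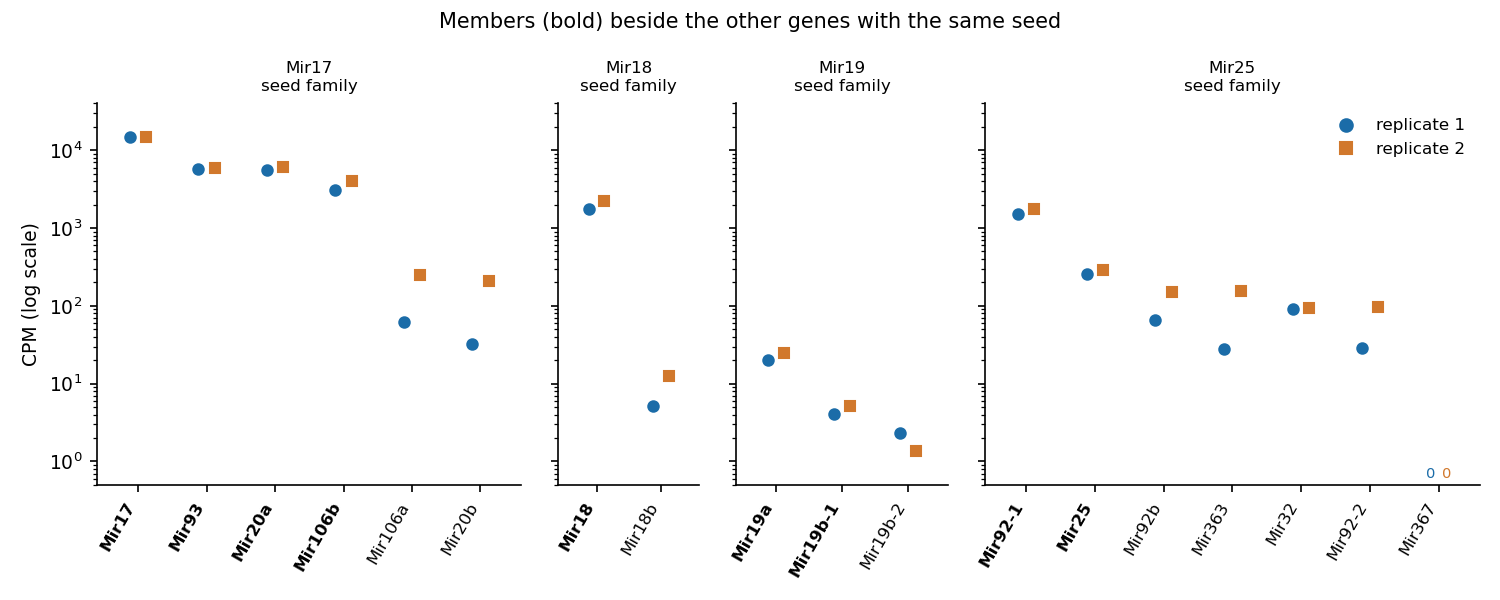
CPM (log scale) of each gene of the 4 seed families in replicate 1 (circles) and replicate 2 (squares), members in bold on the left of each panel. The non-member with the highest mean is Mir106a, at 62.5 CPM in replicate 1 against 251 CPM in replicate 2.

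The libraries were compared gene by gene with a two-sided exact binomial test after TMM scaling (a trimmed mean of log ratios over genes), a comparison that sets 2 libraries against counting noise and not conditions against each other. Of 413 genes tested, 192 (46.5%) differed at a Benjamini-Hochberg adjusted p under 0.05, and the share depended on the count minimum, at 65.7% of the 274 genes with at least 100 counts summed and 26.2% of the 687 genes tested with no minimum. Of the 9 members 5 differed (55.6%), with 3 higher in replicate 1 and 2 higher in replicate 2. Over all genes 90 (21.8%) were higher in replicate 1 and 102 (24.7%) in replicate 2. The members' median absolute log2 ratio was 0.11, against 0.30 over all genes tested and 0.25 over the 318 other detected genes, of which 122 (38.4%) lay within the largest value of a member, 0.20. By total counts the members' median was 0.21 and their largest value 0.37, against medians of 0.34 over all genes tested and 0.28 over the other detected genes.

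Mir17 had a log2 ratio of replicate 1 to replicate 2 of 0.14 (0.13 to 0.16) and an adjusted p of 3.37e-69 in the exact test. Mir93 had a log2 ratio of 0.11 (0.08 to 0.13), and Mir20a one of 0.04 (0.01 to 0.07). Scaling by total counts turned these 3 directions, with log2 ratios of -0.03 for Mir17, -0.07 for Mir93 and -0.13 for Mir20a, because TMM shifts every log2 ratio by 0.17. Mir106b, at -0.20 (-0.23 to -0.16, adjusted p 6.49e-31 in the exact test), and Mir18, at -0.15 (-0.19 to -0.10), were higher in replicate 2 under TMM, total counts and DESeq2 size factors. Mir92-1 (-0.04), Mir25 (-0.02), Mir19a (-0.11, interval -0.54 to 0.32) and Mir19b-1 (-0.17, interval -1.19 to 0.80) did not pass the test, and for the Mir19 genes counts were too few to show a difference of this size. By total counts Mir92-1 (-0.21) and Mir25 (-0.19) passed it too, and all 9 members had the higher CPM in replicate 2. Of all calls 46.9% were higher in replicate 1 under TMM and 23.6% by total counts.

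**Figure D4:**
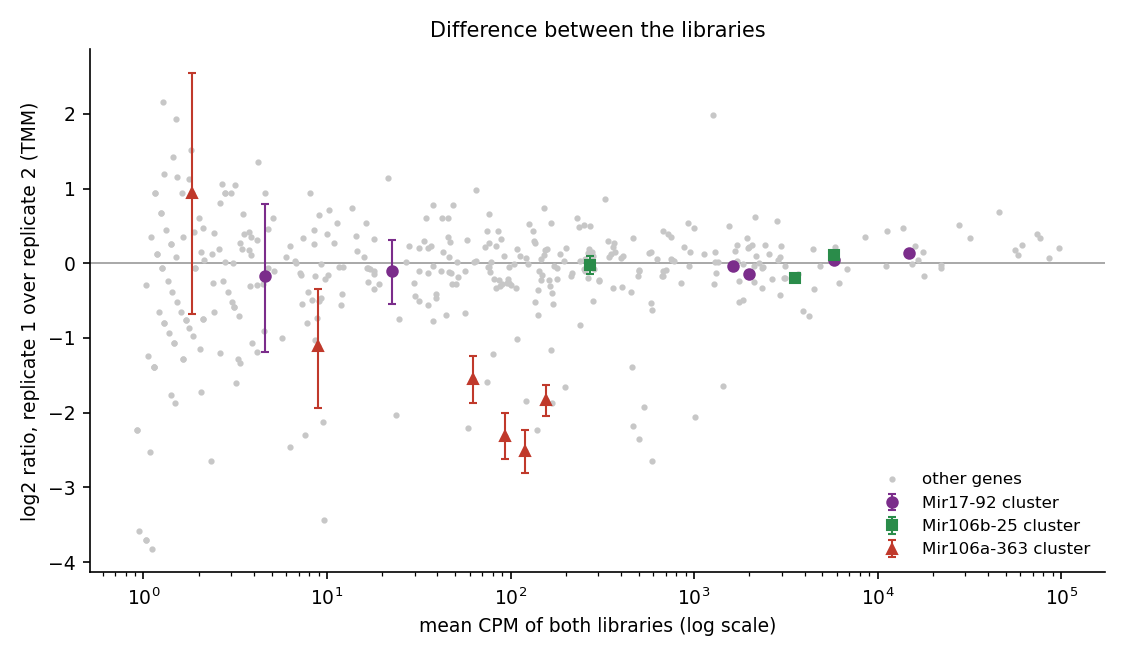
Log2 ratio of replicate 1 to replicate 2 after TMM scaling against mean CPM (log scale), for all genes tested (grey) and the 3 clusters, with exact binomial 95% intervals. The 9 members lie between -0.20 and 0.14, whereas 5 of the 6 Mir106a-363 genes lie between -2.52 and -1.10.

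The paralogous Mir106a-363 cluster on chromosome X carries the same 4 seeds but was far lower and differed between the pools. Its leading genes have mature sequences very close to that of Mir17, from which miR-106a-5p differs by U10A and miR-20b-5p by U10C and C12U.
miR-106a-5p (Mir106a): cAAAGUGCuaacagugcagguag
miR-20b-5p (Mir20b): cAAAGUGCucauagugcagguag
The 6 genes together had 549 counts (160 CPM) in replicate 1 and 4234 counts (726 CPM) in replicate 2. The Mir17-92 cluster exceeded them by a ratio of 147 (135 to 160) in replicate 1 and 34.5 (33.4 to 35.6) in replicate 2. For the Mir106b-25 cluster this ratio was 56.5 (52.0 to 61.6) and 14.1 (13.7 to 14.6) in replicates 1 and 2. The intervals lie far apart, so the members and the paralogous cluster differed between the libraries in unlike ways, beyond counting error. Of its 6 genes 5 were called higher in replicate 2, against the 24.7% of all genes, and the median log2 ratio of the cluster was -1.69.

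Between counterparts the ratio varied widely. Mir18 exceeded Mir18b by a ratio of 338 (214 to 571) in replicate 1 and 174 (139 to 222) in replicate 2. Mir17 exceeded Mir106a by a ratio of 235 (206 to 270) in replicate 1 and 59.8 (56.8 to 63.0) in replicate 2, and Mir20a exceeded Mir20b by 171 (142 to 208) and 29.1 (27.5 to 30.8). Mir92-1 exceeded Mir92-2 by 51.9 (42.6 to 63.9) in replicate 1 and 18.3 (16.8 to 19.9) in replicate 2, where reads that match both are in neither count. For Mir19b-1 and Mir19b-2 (8 counts in each library) the ratio was 1.75 (0.685 to 4.81) in replicate 1 and 3.75 (1.68 to 9.47) in replicate 2, so that in replicate 1 no difference was detectable at this depth. The epithelium and neural lists were also higher in replicate 2, with log2 ratios of their sums of -1.62 and -1.68 after TMM scaling, against -2.01 for the Mir106a-363 cluster, 0.08 for the Mir17-92 cluster and -0.01 for the Mir106b-25 cluster, where total counts gave -2.19, -0.09 and -0.18 for these 3 clusters. Their part in the difference of the Mir106a-363 cluster was not tested.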

How the data were processed

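The authors deposited a table of counts for each of the 2 small RNA libraries. Per the accompanying text files, reads were placed on mm10 and counted against GENCODE M4. Tools for alignment, trimming and counting were not given in the sources used here. Deposited values are raw whole counts for each miRNA gene, in columns whose layout and values fit either strand, the gene's strand and the opposite strand, and the gene's strand was used. The members had 0 counts on the opposite strand. Lines that name no gene (unmapped, multiply matching, no feature), together 51.3% of reads for replicate 1 and 50.3% for replicate 2, stayed out of the totals. Symbols, positions and hosts came from GENCODE M21 by gene ID without version (1894 of 1973 IDs matched), and sequences from RefSeq (GRCm38.p6), where all 9 members matched.

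Libraries were scaled by TMM over all genes (factors 0.942 and 1.06 for replicates 1 and 2; edgeR 4.0.16, R 4.3.3). Genes with at least 10 counts summed were compared by an exact conditional binomial test, two-sided, with Benjamini-Hochberg adjustment over all tested, in Python 3.11.15 with scipy 1.17.1. With 1 group, edgeR's quasi-likelihood test has no contrast. The p-values measure counting noise between 2 libraries only. Alternatives were total counts, DESeq2 1.42.0 size factors, other count minimums, counts on either strand, all reads as denominator, hairpin length and each library alone. The comparison and the intervals were run on simulated counts with set changes and counting noise only, without TMM scaling. That check cannot show how they behave with variation between pools. Named genes were the 9 members and the genes that share their seeds. For the highest member of each cluster, the 3 genes nearest in level were also named, among non-members averaging at least 1000 counts. The members and lists were chosen with earlier results of these data known. Marker lists covered heart muscle, erythroid, leukocyte, endothelium, smooth muscle, epithelium, liver and neural cells. No counted gene matched the listed symbols Mir1a-2, Mir142 and Mir9-1, so the heart muscle, leukocyte and neural sums leave these genes out.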

Additional observations from a re-analysis of the deposited data

How the results depend on the processing

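No paired analysis was possible because the samples form 1 group. With all reads of the file as the denominator, the sum of the 9 members was 16694, that of the Mir17-92 cluster 11949 and that of the Mir106b-25 cluster 4744 per 1000000 reads, because the denominator then holds the reads counted for no gene. With counts on either strand the Mir17-92 sum was 22984 CPM, more than 1 SD below its reported value, while no member's own counts changed. In single libraries the sums ran from 32532 to 35269 CPM for the 9 members, from 23507 to 25030 for the Mir17-92 cluster and from 9025 to 10239 for the Mir106b-25 cluster, and the log2 ratio of the cluster sums from 1.29 to 1.38. By total counts the log2 ratios of replicate 1 to replicate 2 turned to -0.029 for Mir17, -0.133 for Mir20a and -0.068 for Mir93, all still past the threshold, and the share of calls higher in replicate 1 was 23.6%, against 46.9%. By DESeq2 size factors they were 0.18, 0.08 and 0.15 for these genes, and that of Mir25, not called, was 0.02. The genes called between the libraries numbered 180 of 687 (26.2%) with no count minimum, 180 of 274 (65.7%) at 100 counts summed, 203 of 413 (49.2%) by total counts and 188 of 413 (45.5%) by DESeq2 size factors, against 192 of 413 (46.5%). Of the members 7 were called by total counts and 5 under each of the other settings. At a minimum of 100 counts in both libraries 7 of the 9 members were detected, with Mir19a and Mir19b-1 below it. Per 100 bases of hairpin the log2 ratio of Mir17 to Mir20a was 1.71, against 1.36, that of Mir19a to Mir19b-1 2.38, against 2.29, and that of Mir92-1 to Mir25 2.65, against 2.58. Low counts limit the ratios of the Mir19 genes, with 8 to 144 counts per library, and of Mir18b, with 18 and 74 counts in replicates 1 and 2.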
